A study of Mus musculus with 12 samples.

Results

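Anergic CD4 T cells were compared with regulatory CD4 T cells (Treg) across all measured genes. The comparison took the 6 libraries that the labels name as Anergic or Treg, 3 of each, out of the 12 libraries of the series. Both subsets were sorted from spleen and lymph node cells, mixed together, of C57BL/6 mice that were wild type, untreated and polyclonal and carried a Foxp3-GFP reporter. Anergic cells were CD44high and FOXP3-negative with high CD73, high folate receptor 4 (FR4) and NRP1, and Treg cells were FOXP3-positive and CD25-positive. The other libraries, 3 of effector cells (Teff, CD44high, FOXP3-negative, CD73low and FR4low) and 3 of naive cells (CD44low), entered the model and are quoted for context only, with no test. Every library is wild type, so the relation between BATF and the death protein BIM named in the title of the series is seen here as levels in 2 unmanipulated subsets. The subsets are defined by sorting alone, no functional assay accompanies the counts, and the labels do not say whether replicates came from separate animals. All p-values therefore rest on how far these samples spread, and that spread may be technical.

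Anergy is a state in which a T cell that has met its antigen without adequate costimulation stays alive but responds poorly to a further encounter. Regulatory T cells are a lineage held by the transcription factor FOXP3, and they suppress other T cells through surface molecules, cytokine capture and transforming growth factor beta. Both take part in peripheral tolerance, and CD73, FR4 and NRP1, which mark anergic cells, are also carried by many Treg cells. Sorting on FOXP3 and CD25 separates them.

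The 3 Anergic libraries held 8564325 to 8643772 counts and the 3 Treg libraries 7569734 to 9527897. Levels are given as TMM-scaled CPM, that is, counts relative to library size, for the 3 libraries in the order of their numbers, and a log2 fold change is Anergic over Treg. Correlation of log2 CPM across genes, which are not independent replicates, was 0.987 to 0.990 among Anergic libraries, 0.991 to 0.992 among Treg libraries and 0.953 to 0.959 between them. Mitochondrial ribosomal RNA took 13.9%, 15.8% and 16.2% of the counts in the Anergic libraries, against 11.9%, 11.8% and 12.3% in the Treg libraries. Ribosomal, small and abundant noncoding RNA together took 35.4%, 34.1% and 41.1% in Anergic and 31.3%, 30.4% and 30.1% in Treg, so Anergic library 3 stood apart.

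Of 13393 tested genes, 4150 (31.0%) differed between the subsets at an adjusted p under 0.05 in edgeR's quasi-likelihood test. Of these, 2096 (15.6% of tested genes) were higher and 2054 (15.3%) lower in Anergic cells. Differences of 2-fold or more were found for 1300 genes (9.71%), 686 of them higher (5.12%) and 614 lower (4.58%). At 16-fold or more, 64 were higher and 42 lower. The median log2 fold change was 0.62 among genes called higher and -0.59 among those called lower. The Anergic and Treg libraries did not overlap for 5817 genes (43.4%). Scaling to total counts alone moved the median of all tested genes by -0.131 on the log2 scale and the split to 1324 higher and 3027 lower. Changes below that size thus depend on the scaling, and calls of larger ones can too. Of the 4150 calls, 3378 were kept, and those lost included Dapl1 (log2 0.75) and Bmf (log2 0.55). The shares of 15.6% higher and 15.3% lower are the background for the list counts below.

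**Figure D1:**
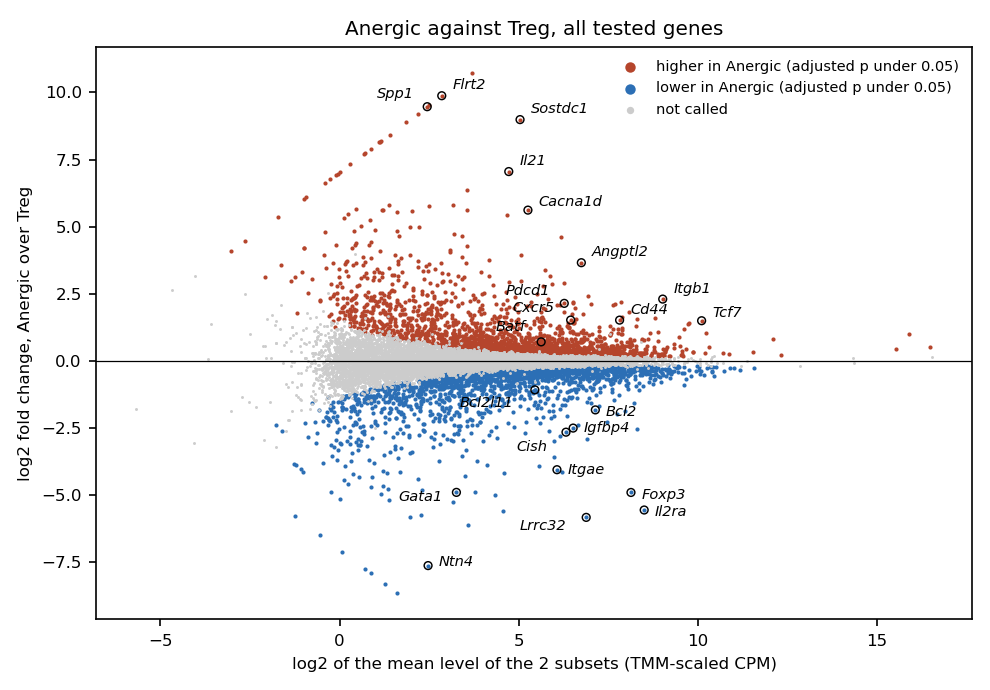
Each point is 1 of the tested genes, with the log2 of its mean level over the 2 subsets (TMM-scaled CPM) on the x axis and its log2 fold change, Anergic over Treg, on the y axis. Red points were called higher and blue points lower in Anergic at an adjusted p under 0.05, grey points were not called, and circles mark genes named in the text. Fitted values of genes with no count in 1 subset form the diagonal rows and depend on the prior count. Foxp3 lies at -4.90, Il2ra at -5.55 and Lrrc32 at -5.83, and Il21 at 7.05.

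The sort markers were read first, as a check of the labels and not as a result. Foxp3 (chrX:7573644-7595245, GRCm38) had 20.3, 15.03 and 19.3 CPM in Anergic libraries and 538, 531 and 562 CPM in Treg libraries (log2 fold change -4.90, SE 0.09, adjusted p = 2.15e-21). Its exons share 18.6% of their length with another gene on the same strand, which limits how exactly its counts can be assigned. Il2ra, which encodes CD25, had 11.3, 13.9 and 20.6 CPM in Anergic and 706, 663 and 761 CPM in Treg (log2 -5.55, adjusted p = 2.51e-19). Both were far lower in every Anergic library than in any Treg library, and Foxp3 averaged 0.73 CPM in Teff and 1.36 CPM in Naive, below the level in Anergic. In bulk samples such as these, fewer cells of a type and less RNA per cell cannot be told apart.

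The genes of 3 markers that define the anergic gate were present in both subsets and modestly higher in Anergic. Nt5e, which encodes the ectonucleotidase CD73, had 278, 232 and 258 CPM in Anergic and 171, 191 and 191 CPM in Treg (log2 0.47, adjusted p = 1.78e-05). Izumo1r, which encodes FR4, had 422, 429 and 421 CPM in Anergic and 293, 329.6 and 306 CPM in Treg (log2 0.45, adjusted p = 1.58e-06). Nrp1, the coreceptor neuropilin 1, had 370.4, 301 and 326 CPM in Anergic and 242, 269 and 249 CPM in Treg (log2 0.39, adjusted p = 0.000595). Libraries did not overlap for any of the 3, but the folds of 1.39, 1.37 and 1.31 were small beside those of Foxp3 and Il2ra. Cd44 had 304, 329 and 369 CPM in Anergic and 107, 119 and 123 CPM in Treg (log2 1.52, adjusted p = 3.48e-13). Cd4 itself had 1168, 1199 and 1300.0 CPM in Anergic and 446, 464 and 489 CPM in Treg (log2 1.39, adjusted p = 8.7e-14), so the coreceptor message was 2.62-fold higher in Anergic, although both subsets were sorted as CD4 T cells.

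**Figure D2:**
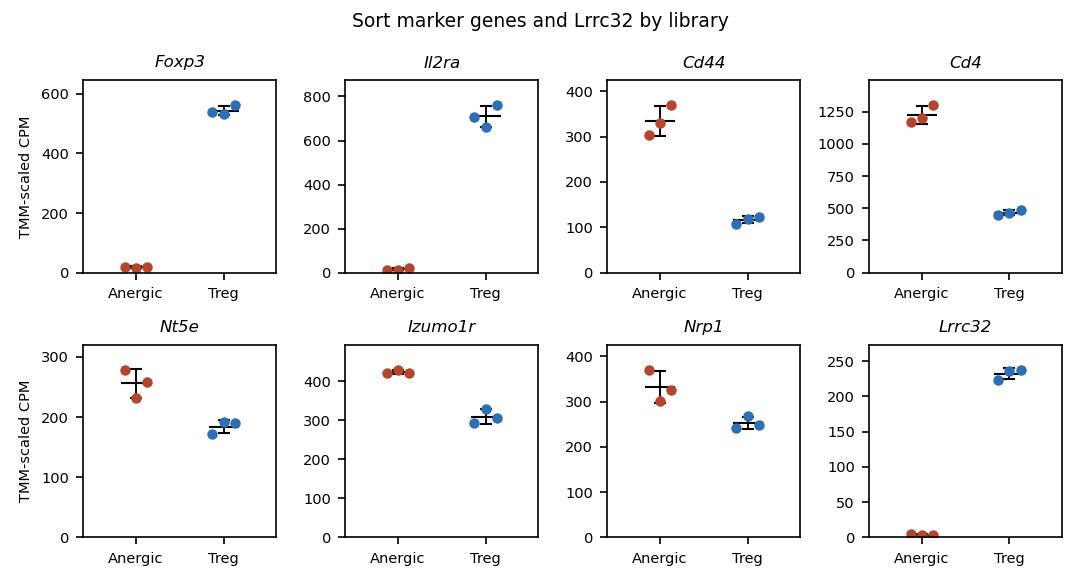
Levels (TMM-scaled CPM, y axis from 0) of the 7 sort marker genes and Lrrc32 in the 3 Anergic libraries (red, left) and the 3 Treg libraries (blue, right), with the mean and SD in black. Foxp3, Il2ra and Lrrc32 are high in the Treg libraries alone, while Nt5e, Izumo1r and Nrp1 are present in both and somewhat higher in Anergic.

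Markers of other cell types were low in both subsets, with exceptions that moved with the comparison. The summed level of 17 T cell identity genes was 6942 to 7501 CPM in Anergic and 5219 to 5489 CPM in Treg. Of the 17 tested members, 12 were called higher (70.6%, against 15.6% of all tested genes). Cd2 was the 1 called lower (5.88%, against 15.3%, or 2 genes with total-count scaling). Without the sort marker Cd4, 11 of 16 were higher and 1 lower. B cell genes summed to 247 to 313 CPM in Anergic and 449 to 549 CPM in Treg, of which Ighm gave 248, 187 and 192 CPM in Anergic and 398, 441 and 488 CPM in Treg. Of 9 tested B cell genes, 3 were called higher (Cd22, H2-Ab1 and Pax5) and 3 lower (Ighm, Cd74 and Cd79b), or 33.3% each. Without Treg library 2, 1 was called higher. Ms4a1 and Cd79a had too few counts to be tested. NK and innate-like T cell genes summed to 29.3 to 46.7 CPM in Anergic, 5.15 to 7.41 CPM in Treg and 204 to 268 CPM in Teff. Of 8 tested members, 4 were called higher, led by Zbtb16, which encodes PLZF, at 17.9, 23.1 and 28.2 CPM in Anergic and 0.71, 0.38 and 0.24 CPM in Treg, and only 2 were called when the 6 libraries were fitted alone. The defining NK gene Ncr1 was at 0. CD8 genes summed to 5.06 to 5.87 CPM in Anergic and 9.88 to 11.8 CPM in Treg, myeloid genes to 11.05 to 15.2 CPM in Anergic and 6.11 to 9.499 CPM in Treg, and plasma cell genes to 18.8 to 34.2 CPM in Anergic and 19.5 to 41.1 CPM in Treg. Stromal and endothelial genes summed to 127 to 148 CPM in Anergic and 149 to 167 CPM in Treg, most of it Pecam1, the single tested member, which fell by 0.22 on the log2 scale (adjusted p = 0.012) and lost the call without Anergic library 1 or Treg library 1 or 3. The part that cells carrying these markers have in the results below was not tested.

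Most Treg signature genes were lower in Anergic cells. Of 36 Treg signature genes, all tested, 26 were called lower and 6 higher, against 15.3% and 15.6% of all tested genes, and the median log2 fold change was -1.06 against 8.02e-05 over all tested genes. The sort markers Foxp3 and Il2ra are among the 26. Without the 5 sort markers on the list, 24 of 31 were lower and 3 higher, with a median of -1.16. Lrrc32, which encodes GARP, the anchor of latent TGF-beta on Treg cells, had 4.94, 3.76 and 3.46 CPM in Anergic and 223, 236 and 238 CPM in Treg (log2 fold change -5.83, SE 0.11, adjusted p = 1.45e-18). Lrrc32 was near 0 in Teff and Naive as well. Itgae, the integrin alpha chain CD103, had 6.70, 6.34 and 9.98 CPM in Anergic and 101, 131 and 147 CPM in Treg (log2 -4.05, adjusted p = 1.26e-13), and Il1rl1, the IL-33 receptor ST2, had 1.18, 0.94 and 1.46 CPM in Anergic and 9.70, 10.1 and 13.3 CPM in Treg (log2 -3.20, adjusted p = 3.95e-09). Klrg1, a receptor of differentiated T cells, had 0.47, 0.12 and 0.40 CPM in Anergic and 4.75, 10.4 and 13.6 CPM in Treg (log2 -4.80, adjusted p = 1.34e-07). These 4 genes were all but restricted to the Treg side of this pair, with no overlap of libraries.

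Other Treg genes were lower in Anergic but still present. Tnfrsf18, which encodes GITR, had 73.9, 63.3 and 67.0 CPM in Anergic and 167, 189 and 183 CPM in Treg (log2 -1.40, adjusted p = 1.38e-13), and the log2 fold change of Ctla4 was -0.79 (adjusted p = 0.0053). The Helios gene Ikzf2 differed by -0.50 on the log2 scale (adjusted p = 0.000276), whereas its relative Ikzf4, which encodes Eos, had 31.1, 19.5 and 22.8 CPM in Anergic and 109, 105 and 94.2 CPM in Treg (log2 -2.07, adjusted p = 7.14e-13). The 6 members called higher in Anergic were Icos, Tigit, Itgb8, Nt5e, Izumo1r and Nrp1, the last 3 of which are sort markers. Icos, a costimulatory receptor, had 41.5, 30.8 and 29.7 CPM in Anergic and 12.7, 17.99 and 17.6 CPM in Treg (log2 1.09, adjusted p = 8.81e-06). Il10, Ebi3, Cd83 and Penk were not called, and Il10 had a log2 fold change of -0.81 with an adjusted p of 0.159.

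The 12 largest falls also included genes outside that list. Ntn4, which encodes the secreted guidance protein netrin 4, had 1 count in the Anergic libraries together and 293 in the Treg libraries, a ratio of Treg over Anergic of 273 (exact 95% interval 48.7 to 10833, counting error only). Gsta4, a glutathione transferase, had 0.35, 0.23 and 0.40 CPM in Anergic and 25.1, 22.7 and 23.4 CPM in Treg (log2 -6.12, adjusted p = 1.64e-13). Sdc4, the heparan sulfate proteoglycan syndecan 4, had 0.94, 1.53 and 1.20 CPM in Anergic and 32.9, 41.9 and 42.4 CPM in Treg (log2 -4.98, adjusted p = 5.9e-15). Sorcs2, Arhgap20 and Lad1 were lower by 48.1-fold, 29.5-fold and 17.9-fold. Ly6c1 fell by 5.25 on the log2 scale, but its reads may be shared with the near-identical Ly6c2. Flicr, a long noncoding RNA beside Foxp3, had 0.82, 0.70 and 1.86 CPM in Anergic and 26.2, 19.3 and 19.5 CPM in Treg (log2 -4.28, adjusted p = 1.54e-11), and 23.8% of its exon length is shared with another gene on the same strand.

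Transcription factors of the Treg network moved in both directions. Of 21 tested Foxp3 partners and Treg factors, 11 were called lower (52.4%, against 15.3% of all tested genes) and 7 higher (33.3%, against 15.6%). The higher count was 3 with total-count scaling. The median log2 fold change was -0.33. Without Foxp3, a sort marker, 10 of 20 were lower, with a median of -0.22. Gata1, best known as a factor of red cell and platelet precursors, had 0.82, 0.70 and 0.27 CPM in Anergic and 19.6, 17.4 and 18.8 CPM in Treg (log2 -4.90, adjusted p = 8.95e-13), and no erythroid marker had enough counts to be tested. Bach2, a repressor that keeps lymphocytes from terminal differentiation, had 52.1, 49.3 and 49.4 CPM in Anergic and 135, 126 and 126 CPM in Treg (log2 -1.36, adjusted p = 5.32e-13). Satb1, Prdm1 and Foxo1 were lower as well, with log2 fold changes of -1.58, -0.94 and -0.93. On the other side, Myb had 65.0, 78.2 and 72.4 CPM in Anergic and 41.3, 37.0 and 35.4 CPM in Treg (log2 0.92, adjusted p = 2.29e-08), and Rora had 59.8, 55.8 and 62.4 CPM in Anergic and 36.6, 35.1 and 34.2 CPM in Treg (log2 0.75, adjusted p = 1.21e-05).

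Follicular helper T cells (Tfh) are the CD4 cells that help B cells in germinal centres. All 19 tested Tfh genes of 22 listed were called higher in Anergic, against 15.6% of all tested genes, with a median log2 fold change of 1.65. The list was chosen with earlier results of these data known, so this count is a description and not independent support. The other 3 members, Ascl2, Ppp1r14a and Cxcl13, did not pass the count filter, and since the filter can keep a gene through the subset where it is high, the count describes only the tested members. Il21, the cytokine by which Tfh cells help B cells, had 69.9, 45.9 and 41.5 CPM in Anergic and 0.30, 0.63 and 0.24 CPM in Treg (log2 fold change 7.05, SE 0.32, adjusted p = 1.77e-14), and averaged 4.98 CPM in Teff. An antisense gene covers 8.92% of its exon length, and reads of the 2 strands may not be told apart. Cxcr5, the receptor that guides cells into B cell follicles, had 133, 128 and 128 CPM in Anergic and 44.0, 43.7 and 47.9 CPM in Treg (log2 1.52, adjusted p = 3.44e-13). Pdcd1, which encodes PD-1, had 142, 115 and 121 CPM in Anergic and 26.9, 32.7 and 26.2 CPM in Treg (log2 2.14, adjusted p = 1.39e-14). For all of these every Anergic library lay above every Treg library.

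Secreted members of the list differed by large folds. Sostdc1, which encodes a secreted inhibitor of BMP and WNT signals, had 1622 counts over the Anergic libraries and 3 over the Treg libraries, a ratio of 579.5 (exact 95% interval 198 to 2813, counting error only), at 96.0, 48.7 and 52.0 CPM in Anergic. Angptl2, a secreted angiopoietin-like protein, had 241, 184 and 173 CPM in Anergic and 17.7, 16.5 and 13.1 CPM in Treg (log2 3.66, adjusted p = 3.39e-16). Il4 had 3.06, 6.11 and 6.79 CPM in Anergic and no count in Treg, at least 46.1-fold higher against a floor of 3 counts over the 3 Treg libraries. Slamf6, a homophilic receptor that works through SAP, had 375, 359.6 and 336 CPM in Anergic and 114, 116 and 113 CPM in Treg (log2 1.65, adjusted p = 4.4e-15). The log2 fold change of the lineage factor Bcl6 was 1.58 (adjusted p = 1.57e-12) and that of its antagonist Prdm1 was -0.94 (adjusted p = 7.52e-05). Maf, a factor that drives Il21 and Il4, had 537, 443 and 434 CPM in Anergic and 149, 167 and 163 CPM in Treg (log2 1.56, adjusted p = 7.36e-14). The share of Tfh cells in the Anergic gate was not measured, and its part in these values was not tested.

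**Figure D3:**
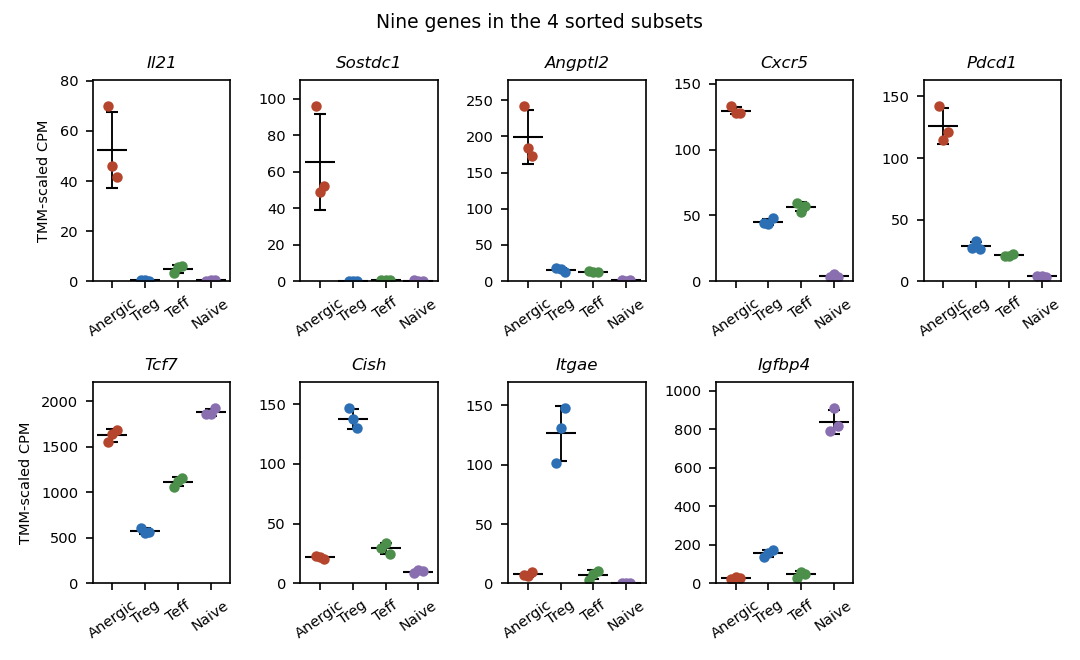
Levels (TMM-scaled CPM, y axis from 0) of 9 genes in the 3 libraries of each subset, Anergic (red), Treg (blue), Teff (green) and Naive (violet), with mean and SD in black. Il21, Sostdc1 and Angptl2 are high in the Anergic libraries, Cish and Itgae in the Treg libraries, and Igfbp4 is lower in Anergic than in Treg libraries.

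The largest folds of the whole comparison included secreted, matrix and membrane genes. Fbn2, which encodes the microfibril protein fibrillin 2, had 39.5, 18.2 and 20.2 CPM in Anergic and no count in Treg, at least 229.7-fold higher. Flrt2, an adhesion and guidance receptor, and Edn3, the peptide endothelin 3, also had no count in Treg and were at least 128-fold and 99.3-fold higher. Spp1, which encodes osteopontin, was at least 95.4-fold higher, with 18.8% of its exon length shared with another gene on the same strand. Each of these 4 genes averaged under 1 CPM in Teff and Naive. Vdr, the vitamin D receptor, had 24.3, 21.4 and 23.4 CPM in Anergic and 0, 0.13 and 0.71 CPM in Treg (log2 6.35, adjusted p = 2.5e-12). Cacna1d, a pore subunit of an L-type calcium channel, had 95.2, 68.2 and 61.8 CPM in Anergic and 2.12, 1.14 and 1.18 CPM in Treg (log2 5.62, adjusted p = 5.28e-15), and Smtn, the cytoskeletal protein smoothelin, had 32.9, 58.9 and 58.4 CPM in Anergic and 1.31, 1.01 and 1.06 CPM in Treg (log2 5.44, adjusted p = 5.59e-14), with 16.3% of its exon length under a gene on the other strand. Fam84a and Cpne7 completed the 12 highest folds, at 55.8-fold and 54.1-fold.

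Helper lineage genes other than Tfh were split. Of 17 tested Th1 and cytotoxic genes, 13 were called higher (76.5%, against 15.6% of all tested genes) and 3 lower (17.6%, against 15.3%) in Anergic. Tbx21, the Th1 factor T-bet, had 38.7, 28.9 and 29.7 CPM in Anergic and 4.14, 4.18 and 2.47 CPM in Treg (log2 3.16, adjusted p = 5.79e-12), and averaged 117 CPM in Teff. Cxcr3, a chemokine receptor under T-bet control, had 92.6, 88.4 and 89.7 CPM in Anergic and 14.8, 11.9 and 12.5 CPM in Treg (log2 2.78, adjusted p = 2.91e-16). Ifng had 23.8, 14.2 and 10.5 CPM in Anergic and 0.91, 0.51 and 1.29 CPM in Treg (log2 4.13, adjusted p = 1.35e-09), with 25.9% of its exon length shared on the same strand. The 3 lower members were the cytotoxic effectors Prf1, Gzmb and Ctsw, and Prf1 (perforin) had 0.71, 0.94 and 1.997 CPM in Anergic and 8.39, 6.97 and 9.17 CPM in Treg (log2 -2.78, adjusted p = 2.85e-09). Gzmk, another granule gene, had no count in Treg and was at least 64.3-fold higher in Anergic. Of 7 tested Th17 genes, 2 were called higher (Il1r1 and Rora, 28.6% against 15.6%) and 1 lower (Ccr6, 14.3% against 15.3%). Another joined Ccr6 without Anergic library 2 or 3. With total-count scaling 2 were higher and 3 lower. Of 6 tested Th2 genes, 3 were called higher (Il4, Il17rb and Gata3) and 2 lower (Il1rl1 and Il4ra). The shares among all tested genes were 15.6% higher and 15.3% lower. The Gata3 call, with a log2 fold change of 0.20 and an adjusted p of 0.0307, was lost with total-count scaling (adjusted p = 0.592) and without Anergic library 1 or 3 or Treg library 1 or 3 (adjusted p 0.0595 to 0.113).

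BATF, an AP-1 family factor that pairs with JUN and IRF proteins, is the subject of the series. Batf (chr12:85686669-85709087, GRCm38) had 67.5, 57.4 and 58.6 CPM in Anergic and 30.7, 47.0 and 35.3 CPM in Treg (log2 fold change 0.71, SE 0.11, adjusted p = 2.46e-05). The 3 Anergic libraries lay above the 3 Treg libraries, Treg library 2 being the nearest, and the mean was 61.2 ± 5.53 CPM in Anergic and 37.7 ± 8.40 CPM in Treg (SD, n = 3 each). Teff libraries had 31.4, 29.7 and 34.0 CPM and Naive libraries 16.3, 19.6 and 17.9 CPM. Irf4, a partner of BATF on composite DNA elements, had 108, 84.4 and 90.1 CPM in Anergic and 57.6, 64.6 and 62.2 CPM in Treg (log2 0.62, adjusted p = 2.87e-05). Over the 20 tested BATF, AP-1, IRF and BACH genes, 6 were called higher (Maf, Nfil3, Mafg, Batf, Irf4 and Atf6) and 6 lower (Bach2, Jun, Bach1, Irf1, Irf8 and Mafk), with a median of -0.01. The counts in the 2 directions were equal, at 30.0% each, against 15.6% and 15.3% of all tested genes. Jun, a dimer partner of BATF, had 364, 525 and 523 CPM in Anergic and 581, 754 and 835 CPM in Treg (log2 -0.62, adjusted p = 0.00231). Jun also responds to tissue dissociation. Of 17 tested dissociation and heat shock genes, 4 were called lower (23.5%, against 15.3% of all tested genes) and 0 higher. The lower count was 2 with the DESeq2 test and without Treg library 2 and 8 with total-count scaling, and the higher count was 2 without a filter. Their summed level was lowest in library 1 of all 4 subsets, at 6149 CPM in Anergic, 6500.2 CPM in Treg, 5950 CPM in Teff and 6656 CPM in Naive, against 6935 to 7239 CPM in the other Anergic and 7746 to 7787 CPM in the other Treg libraries. The part of this response in the Jun values was not tested.

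BIM, encoded by Bcl2l11, is a BH3-only protein that triggers apoptosis by binding pro-survival BCL2 proteins. Bcl2l11 (chr2:128126038-128162547, GRCm38) had 28.6, 23.95 and 31.9 CPM in Anergic and 56.0, 59.9 and 62.1 CPM in Treg (log2 fold change -1.08, SE 0.09, adjusted p = 2.74e-09). Its mean was 28.2 ± 4.02 CPM in Anergic and 59.3 ± 3.09 CPM in Treg (SD, n = 3 each), so the Treg level was 2.11-fold that of Anergic, with no overlap. Teff libraries had 42.2, 39.8 and 40.0 CPM and Naive libraries 46.1, 55.4 and 50.8 CPM, both above Anergic. Bbc3, which encodes PUMA, had 6.47, 5.17 and 4.79 CPM in Anergic and 14.96, 15.7 and 17.05 CPM in Treg (log2 -1.53, adjusted p = 9.84e-08), and Bid had 8.70, 10.2 and 11.2 CPM in Anergic and 18.6, 15.5 and 13.8 CPM in Treg (log2 -0.67, adjusted p = 0.00137). Bmf was the exception, at 6.70, 7.04 and 7.06 CPM in Anergic and 5.36, 4.81 and 3.997 CPM in Treg (adjusted p = 0.0485), and its call was lost in 10 of the 16 alternatives, with adjusted p from 0.0553 to 0.17, including those without Anergic library 1, 2 or 3 and without Treg library 2 or 3. Bad, Bik and Pmaip1 were not called, and Hrk had too few counts, so 3 of 7 tested BH3-only genes were lower (42.9%, against 15.3% of all tested genes) and 1 higher (14.3%, against 15.6%).

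Of 6 tested genes for the pro-survival proteins that BIM opposes, 3 were lower and 2 higher in Anergic. The shares among all tested genes were 15.3% lower and 15.6% higher. Bcl2 (chr1:106538178-106714274, GRCm38) had 70.9, 54.6 and 60.7 CPM in Anergic and 227, 208 and 224 CPM in Treg (log2 fold change -1.82, SE 0.10, adjusted p = 7.89e-13). Teff libraries had 109, 82.7 and 77.5 CPM and Naive libraries 147, 131 and 141 CPM, and Anergic had the lowest mean of the 4 subsets. Mcl1 had 331, 338 and 321 CPM in Anergic and 537, 534 and 555 CPM in Treg (log2 -0.72, adjusted p = 1.8e-09), and Bcl2l1, which encodes BCL-XL, had 25.4, 31.8 and 32.2 CPM in Anergic and 48.2, 51.8 and 52.0 CPM in Treg (log2 -0.77, adjusted p = 4.8e-07). Bcl2a1d and Bcl2a1b were higher, by 1.90 and 0.68 on the log2 scale, but they are near-identical copies whose reads may be shared and are uncertain. Bcl2l2 was not called. Bcl2l11 and these 3 of the genes for its targets, Bcl2, Mcl1 and Bcl2l1, were thus lower together in Anergic. Bax and Bak1, the pore formers downstream, differed by -0.22 and -0.09 on the log2 scale and were not called.

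**Figure D4:**
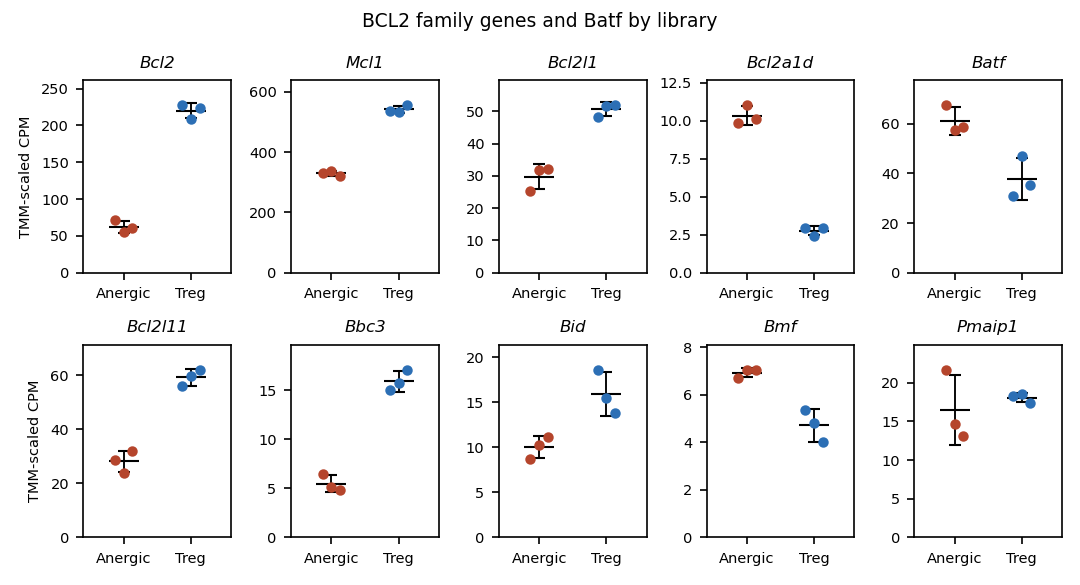
Levels (TMM-scaled CPM, y axis from 0) of Batf, 4 pro-survival and 5 BH3-only genes in the 3 Anergic libraries (red, left) and the 3 Treg libraries (blue, right), with mean and SD in black. Bcl2, Mcl1, Bcl2l1, Bcl2l11, Bbc3 and Bid are lower and Batf and Bcl2a1d higher in every Anergic library, while Pmaip1 overlaps.

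Caspases and death receptors moved in both directions. Of 24 tested members, 6 were called higher and 6 lower (25.0% each, against 15.6% and 15.3% of all tested genes). With total-count scaling 5 were higher and 7 lower. Casp1, the inflammatory caspase, had 39.3, 30.8 and 29.4 CPM in Anergic and 5.46, 5.95 and 7.29 CPM in Treg (log2 2.42, adjusted p = 3.47e-10), and Casp4 had 52.5, 40.6 and 46.3 CPM in Anergic and 12.7, 10.6 and 11.6 CPM in Treg (log2 1.99, adjusted p = 7.54e-10). Casp8, the initiator on death receptors, was lower, at 110.1, 103 and 108 CPM in Anergic and 183, 181 and 182 CPM in Treg (log2 -0.76, adjusted p = 1.3e-09). Fasl was higher by 1.24 on the log2 scale (adjusted p = 1.14e-05), and its receptor Fas was not called (log2 -0.28, adjusted p = 0.145).

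Genes tied to anergy in earlier work, a list that holds the 3 markers of the gate, were higher in 17 of 29 tested members (58.6%, against 15.6% of all tested genes) and lower in 7 (24.1%, against 15.3%), with a median log2 fold change of 0.44. Without those 3 markers, 14 of 26 were higher and 7 lower, with a median of 0.37. Nfatc1, the calcium-dependent factor NFATc1, had 743, 645 and 647 CPM in Anergic and 214, 231 and 226 CPM in Treg (log2 1.60, adjusted p = 2.11e-14), and Tox2 had 112, 88.3 and 89.1 CPM in Anergic and 11.7, 8.99 and 6.58 CPM in Treg (log2 3.39, adjusted p = 2.78e-14). Rnf128, which encodes the anergy E3 ligase GRAIL, had 10.6, 7.98 and 10.8 CPM in Anergic and 1.41, 0.63 and 0.35 CPM in Treg (log2 3.53, adjusted p = 1.06e-07), whereas the related ligase genes Cblb and Itch were not called (log2 -0.02 and 0.02). Lag3 had 147, 84.7 and 92.2 CPM in Anergic and 22.03, 27.4 and 26.6 CPM in Treg (log2 2.10, adjusted p = 1.54e-09). The 7 lower members included Nr4a1, a factor induced by receptor signalling, at 70.1, 59.3 and 60.04 CPM in Anergic and 126, 137 and 127 CPM in Treg (log2 -1.04, adjusted p = 6.11e-11), and Ndrg1, at 4.94, 4.81 and 2.53 CPM in Anergic and 14.7, 17.5 and 14.2 CPM in Treg (log2 -1.89, adjusted p = 1.91e-07).

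Among factors downstream of the T cell receptor, NFAT genes were higher, while of the NR4A genes 1 was lower and 2 were not called. Of 15 tested NFAT, NR4A, EGR and TOX genes, 11 were called higher (73.3%, against 15.6% of all tested genes) and 2 lower (13.3%, against 15.3%). With total-count scaling 8 were higher and 4 lower. The median in the main fit was 0.52. Egr3, a feedback factor of receptor signalling, had 64.3, 65.3 and 64.6 CPM in Anergic and 29.0, 32.6 and 34.1 CPM in Treg (log2 1.02, adjusted p = 1.56e-09). Nr4a2 and Nr4a3 were not called (log2 -0.35 and -0.14). Of 22 tested acute receptor response genes, 10 were called higher (45.5%, against 15.6% of all tested genes) and 7 lower (31.8%, against 15.3%). Total-count scaling gave 10 higher and 9 lower. Il2, the T cell growth factor, had 36 counts over the Anergic libraries and 1 over the Treg libraries, a ratio of 38.6 (exact 95% interval 6.50 to 1566, counting error only, adjusted p = 4.47e-05), while Myc had 21.3, 27.4 and 31.9 CPM in Anergic and 101, 99.8 and 89.4 CPM in Treg (log2 -1.86, adjusted p = 6.76e-13). Of 18 tested NF-kB genes, 1 was higher (Tnip2, 5.56%, against 15.6%) and 6 lower (33.3%, against 15.3%). The lower ones were led by Nfkbiz, an atypical IkB protein (log2 -0.69, adjusted p = 4.79e-06). Without Anergic library 3, 2 NF-kB genes were called higher.

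Of 26 tested receptor-proximal signalling genes, 15 were called higher (57.7%, against 15.6% of all tested genes) and 5 lower (19.2%, against 15.3%). With total-count scaling 10 were higher and 5 lower. Without the sort marker Cd4, 14 of 25 were higher and 5 lower. Themis, which sets the signalling threshold in thymocytes, had 152, 179.6 and 187 CPM in Anergic and 55.6, 48.0 and 48.7 CPM in Treg (log2 1.76, adjusted p = 1.78e-14). Zap70, the kinase recruited to the CD3 chains, had 313, 285 and 272 CPM in Anergic and 139, 148 and 142 CPM in Treg (log2 1.02, adjusted p = 1.84e-11). Against these, the TEC kinase Txk had 23.4, 25.6 and 27.6 CPM in Anergic and 74.7, 69.0 and 68.5 CPM in Treg (log2 -1.47, adjusted p = 5.9e-12), and Rasgrp1, the RAS activator that responds to diacylglycerol, had 143, 180.1 and 194 CPM in Anergic and 289.5, 268 and 295 CPM in Treg (log2 -0.72, adjusted p = 1.73e-07). Attenuators of the same pathway were mixed, with 9 higher (32.1%, against 15.6%) and 11 lower (39.3%, against 15.3%) of 28 tested. Ptpn11, the phosphatase SHP-2, had 428, 373 and 345 CPM in Anergic and 87.0, 80.7 and 84.5 CPM in Treg (log2 2.18, adjusted p = 2.78e-16), and the autoimmunity-linked phosphatase Ptpn22 was higher by 1.21 on the log2 scale. Among diacylglycerol kinases, Dgkz was higher (log2 0.46, adjusted p = 2.39e-06) and Dgkd lower (log2 -0.85, adjusted p = 9.93e-10). Of 17 DUSP and RGS regulators, 3 were higher (17.6%, against 15.6% of all tested genes, or 1 gene with total-count scaling) and 10 lower (58.8%, against 15.3%). The lower ones included Dusp4, a MAP kinase phosphatase (21.9, 18.4 and 22.4 CPM in Anergic, 65.5, 72.3 and 58.2 CPM in Treg), and Rgs1, a brake on chemokine receptors (87.3, 84.1 and 81.3 CPM in Anergic, 219, 199 and 191 CPM in Treg).

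Inhibitory receptors divided between the subsets. Of 16 tested list members, Pdcd1, Lag3, Btla, Cd160 and Tigit were called higher (31.2%, against 15.6% of all tested genes). Klrg1, Cd101, Ctla4, Entpd1, Cd200r1 and Cd96 were called lower (37.5%, against 15.3%). Entpd1 encodes CD39, an enzyme and not a receptor, and is counted again in the adenosine pathway below. The list's median of 0.08 became -0.05 with total-count scaling, so its sign depended on the scaling. Btla had 131, 113 and 125 CPM in Anergic and 60.6, 54.2 and 60.7 CPM in Treg (log2 1.07, adjusted p = 3.3e-11). Cd101, an immunoglobulin-family receptor, had 20.6, 15.1 and 18.1 CPM in Anergic and 41.9, 38.0 and 43.4 CPM in Treg (log2 -1.20, adjusted p = 2.87e-08).

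The costimulatory TNF and CD28 families split for the most part by role. All 17 tested members were called (against 31.0% of all tested genes), 9 higher and 8 lower. The 5 tested TNF family ligands of the list were all higher in Anergic. Cd40lg, the ligand by which helper cells act on CD40 of B cells and dendritic cells, had 137, 136 and 137 CPM in Anergic and 19.8, 17.5 and 17.8 CPM in Treg (log2 fold change 2.89, SE 0.08, adjusted p = 6.35e-18), while Teff libraries had 149.6, 155 and 150.1 CPM. Tnfsf14, which encodes LIGHT, had 32.9, 31.1 and 37.7 CPM in Anergic and 3.33, 2.03 and 1.999 CPM in Treg (log2 3.75, adjusted p = 1.92e-14), and Tnfsf8, the CD30 ligand, had 237, 188 and 190.4 CPM in Anergic and 42.3, 36.4 and 35.4 CPM in Treg (log2 2.43, adjusted p = 4.83e-16). Tnfsf4 and Tnfsf11, which encode OX40L and RANKL, were higher by 3.58 and 2.06 on the log2 scale. Of the 8 TNF receptors, 1 was called higher, Tnfrsf14, and 7 lower, Tnfrsf9, Tnfrsf18, Tnfrsf8, Tnfrsf4, Tnfrsf25, Tnfrsf1b and Cd27. Tnfrsf9, which encodes 4-1BB, had 40.2, 38.6 and 46.1 CPM in Anergic and 93.7, 122 and 119 CPM in Treg (log2 -1.42, adjusted p = 2.39e-11), and Tnfrsf4, which encodes OX40, had 99.6, 74.8 and 86.0 CPM in Anergic and 161, 169 and 178 CPM in Treg (log2 -0.96, adjusted p = 1.11e-09). Cd28, Icos and Cd226 were also higher in Anergic. The remaining lower member, outside these ligands and TNF receptors, went the other way.

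Of 28 tested cytokine receptor, STAT and SOCS genes, 13 were called lower (46.4%, against 15.3% of all tested genes), 4 higher (14.3% against 15.6%, and 2 genes with total-count scaling) and 11 were not called. Without the sort marker Il2ra, 12 of 27 were lower. Interleukin 2 signals through CD25, the shared beta and gamma chains and STAT5, which induces the inhibitors of the CIS and SOCS family. Il2rb, the beta chain, fell by 0.88 on the log2 scale (adjusted p = 2.07e-10), and Il2rg was not called (log2 -0.19). Cish, which encodes the STAT5-induced inhibitor CIS, had 22.6, 22.3 and 20.8 CPM in Anergic and 146, 138 and 129.7 CPM in Treg (log2 fold change -2.65, SE 0.09, adjusted p = 2.77e-16), and Teff libraries had 29.3, 34.2 and 25.0 CPM. Socs2, Socs3 and Socs1 differed by -2.97, -1.13 and -1.09 on the log2 scale and were each called lower. Il4ra, the IL-4 receptor alpha chain, had 56.0, 63.2 and 62.3 CPM in Anergic and 269, 296 and 309 CPM in Treg (log2 -2.27, adjusted p = 7.07e-17). Among the higher genes, Il9r had 13.997, 18.2 and 19.97 CPM in Anergic and 2.53, 4.18 and 5.17 CPM in Treg (log2 2.15, adjusted p = 1.05e-08), and Stat4, which transmits IL-12 signals, was higher by 0.69 on the log2 scale with 26.7% of its exon length shared on the same strand. Stat3, Stat5b and Stat6 were not called.

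The promoters of 4 of these genes are shown because they hold the letters of a STAT-type motif (TTCNNNGAA) or an AP-1 type motif (TGANTCA), the classes of site to which STAT5 and BATF dimers are known to bind. Sequences are from RefSeq on GRCm38.p6 and run from 250 bases before to 50 bases after the listed start, 5′ to 3′ on the gene's strand, with motif letters in capitals. RefSeq lists a second, upstream window for Foxp3 and for Tnfrsf9, and neither of those holds either motif. The windows shown are chrX:7580233-7580532 on the plus strand for the later of 2 listed Foxp3 starts, chr9:107296409-107296708 plus for Cish, chr4:150927749-150928048 plus for Tnfrsf9 and chr17:57194132-57194431 minus for Tnfsf14. Counted from the start as base 1, the first motif letter is at -139 in Foxp3, at 1 and 12 in Cish, at -136 (STAT-type) and -15 (AP-1 type) in Tnfrsf9, and at -160 in Tnfsf14.
Foxp3: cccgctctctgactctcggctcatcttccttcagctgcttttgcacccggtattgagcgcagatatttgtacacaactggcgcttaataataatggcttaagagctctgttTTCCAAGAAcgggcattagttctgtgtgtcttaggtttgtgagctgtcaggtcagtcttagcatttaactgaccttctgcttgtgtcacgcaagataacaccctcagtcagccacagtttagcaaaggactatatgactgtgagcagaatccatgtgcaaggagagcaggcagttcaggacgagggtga
Cish: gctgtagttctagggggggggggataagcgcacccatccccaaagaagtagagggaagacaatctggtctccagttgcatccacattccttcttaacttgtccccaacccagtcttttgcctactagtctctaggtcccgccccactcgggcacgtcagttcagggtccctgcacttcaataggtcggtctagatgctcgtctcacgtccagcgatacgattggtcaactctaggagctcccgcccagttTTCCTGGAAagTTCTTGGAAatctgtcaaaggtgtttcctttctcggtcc
Tnfrsf9: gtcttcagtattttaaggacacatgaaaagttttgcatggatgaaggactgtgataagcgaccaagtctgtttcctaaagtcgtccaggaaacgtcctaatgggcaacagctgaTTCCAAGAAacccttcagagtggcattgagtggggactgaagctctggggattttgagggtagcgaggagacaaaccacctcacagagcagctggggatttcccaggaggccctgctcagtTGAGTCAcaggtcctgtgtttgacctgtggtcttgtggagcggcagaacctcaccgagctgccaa
Tnfsf14: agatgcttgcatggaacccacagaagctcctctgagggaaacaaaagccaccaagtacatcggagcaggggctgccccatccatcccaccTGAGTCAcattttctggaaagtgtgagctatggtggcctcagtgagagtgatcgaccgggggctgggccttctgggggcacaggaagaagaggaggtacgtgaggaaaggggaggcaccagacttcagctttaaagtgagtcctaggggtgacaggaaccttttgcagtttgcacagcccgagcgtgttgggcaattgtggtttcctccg
Both motifs read the same on both strands, and they do not overlap each other here. Among the 8879 tested genes matched to a promoter, 5.74% hold the AP-1 type motif and 8.40% the STAT-type motif. The AP-1 type motif is found in 10.4% of 454 matched genes that were higher by 2-fold or more and in 10.1% of 375 that were lower by 2-fold or more, and the STAT-type motif in 8.37% and 12.8% of the same genes. These shares are descriptions, and the windows of Batf, Bcl2l11, Bcl2, Il2ra and Izumo1r hold neither run of letters.

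Of 18 tested genes of TGF-beta activation and response, 6 were called higher (33.3%, against 15.6% of all tested genes) and 8 lower (44.4%, against 15.3%). Their median log2 fold change was -0.12. Besides Lrrc32 and Itgae, Smad7, the inhibitory SMAD induced by the pathway, had 73.6, 62.7 and 57.2 CPM in Anergic and 189, 195 and 196 CPM in Treg (log2 -1.58, adjusted p = 6.92e-14), and Tgfbr1 was also lower, with a log2 fold change of -1.37. The other signalling receptor gene, Tgfbr2, was higher (log2 0.52). Tgfbr3, the coreceptor betaglycan, had 72.6, 87.7 and 86.3 CPM in Anergic and 23.5, 18.4 and 20.1 CPM in Treg (log2 1.98, adjusted p = 5.41e-14). Itgav and Itgb8, the 2 chains of an integrin that frees active TGF-beta from its latent form, were both higher (log2 0.74 and 0.71). In the adenosine pathway 3 of 9 tested genes were higher and 3 lower (33.3% each, against 15.6% and 15.3%). Without the sort marker Nt5e, 2 of 8 were higher and 3 lower. Entpd1, which encodes CD39 and feeds CD73, had 25.5, 19.02 and 20.9 CPM in Anergic and 31.3, 34.3 and 34.4 CPM in Treg (log2 -0.61, adjusted p = 0.00163), the reverse of Nt5e. Ada, which breaks adenosine down, had 1.06, 1.29 and 1.20 CPM in Anergic and 6.87, 6.33 and 5.88 CPM in Treg (log2 -2.42, adjusted p = 2.68e-07). P2rx7 and P2rx4 were called higher and lower with adjusted p of 0.0352 and 0.0249. Both calls were lost without Anergic library 3, without Treg library 2 and without Treg library 3. The P2rx7 call was also lost with total-count scaling (adjusted p = 0.438), which gave 2 higher and 3 lower in this pathway. Adora2a, Dpp4 and Adk were not called.

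Trafficking genes set the subsets apart. Of 28 tested, 11 were called higher and 14 lower, against 15.6% and 15.3% of all tested genes. Without the sort marker on this list, 10 of 27 were higher and 14 lower. Selplg, the P-selectin ligand, was lower, at 107, 120.5 and 129.8 CPM in Anergic and 248, 285 and 269 CPM in Treg (log2 -1.17, adjusted p = 1.36e-11), and Ccr7 and S1pr1, which direct entry to and exit from lymph nodes, fell by 0.45 and 0.58 on the log2 scale. Itgb1, the integrin beta 1 chain, had 865, 813 and 911 CPM in Anergic and 162, 176 and 187 CPM in Treg (log2 2.30, adjusted p = 1.25e-17). Cxcr6 was higher by 4.65 (adjusted p = 6.52e-13), while Ccr8, Ccr6, Ccr2 and Ccr9 were lower. All 14 tested neuropilin, semaphorin and plexin genes were called, against 31.0% of all tested genes. Of these, 8 were higher (5 with a filter of 5 CPM, which tests fewer) and 6 lower. Without the sort marker Nrp1, 7 of 13 were higher and 6 lower. Nrp2 was lower (log2 -2.65) although Nrp1 was higher, and of the plexins Plxnb2 had 10.4, 6.69 and 5.46 CPM in Anergic and 1.72, 2.15 and 1.65 CPM in Treg (log2 2.03, adjusted p = 4.83e-05) while Plxnd1 had 12.2, 9.04 and 16.5 CPM in Anergic and 29.8, 35.6 and 35.7 CPM in Treg (log2 -1.43, adjusted p = 4.35e-07).

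Naive and quiescence genes were mostly lower, with Tcf7 among the exceptions. Of 24 tested, 17 were called lower (70.8%, against 15.3% of all tested genes) and 4 higher (16.7%, against 15.6%), with a median of -0.42. The 4 became 2 with total-count scaling and without Anergic library 2 or Treg library 2. Tcf7, which encodes TCF-1, a factor of stem-like and follicular T cells, had 1550.3, 1642 and 1686 CPM in Anergic and 609, 558 and 562 CPM in Treg (log2 fold change 1.50, SE 0.06, adjusted p = 7.64e-15), and its relative Lef1 was lower (log2 -0.51, adjusted p = 8.4e-07). Igfbp4, an insulin-like growth factor binding protein, had 24.2, 31.0 and 27.3 CPM in Anergic and 139, 156 and 173 CPM in Treg (log2 -2.50, adjusted p = 3.78e-12), against 790.2, 908 and 818 CPM in Naive. The other higher members were Slfn2, Btg1 and Dapl1. The Dapl1 call (adjusted p = 0.0274) was lost without Anergic library 2 (0.108), Anergic library 3 (0.0986) or Treg library 2 (0.145), with total-count scaling (0.0547) and with limma voom (0.0737). Among ID and E proteins, Id2, an inhibitor of E proteins, had 106, 103 and 113 CPM in Anergic and 14.7, 15.5 and 14.1 CPM in Treg (log2 2.86, adjusted p = 1.72e-18), whereas Id3, Tcf3, Tcf4 and Tcf12 were not called (Tcf12 at an adjusted p of 0.25, called lower at 0.0376 with total-count scaling).

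Of 28 tested cell cycle genes, 5 were called higher (17.9%, against 15.6% of all tested genes) and 2 lower (7.14%, against 15.3%), but 4 and 7 with total-count scaling, and the lower count was 1 without Anergic library 1 or 2 or Treg library 1 or 3. Mki67, the proliferation marker Ki-67, had 84.3, 89.7 and 131 CPM in Anergic and 63.5, 70.6 and 67.8 CPM in Treg (log2 0.59, adjusted p = 0.000304). Of 13 tested G1 cyclins and CDK inhibitors, 1 was higher (Cdkn2c, 7.69%, against 15.6%) and 6 lower (46.2%, against 15.3%). The lower count was 3 without Treg library 1. Of 19 tested glycolysis genes, 6 were higher (31.6%, against 15.6%) and 5 lower (26.3%, against 15.3%). The counts were 4 and 6 under total-count scaling, with 3 lower without Anergic library 3 or Treg library 3. Slc2a3, a glucose transporter, had 19.8, 23.8 and 23.6 CPM in Anergic and 94.0, 97.7 and 98.3 CPM in Treg (log2 -2.11, adjusted p = 9.09e-15), and Hif1a, the oxygen-sensing factor, had 490.3, 416 and 427 CPM in Anergic and 235, 254 and 259.7 CPM in Treg (log2 0.83, adjusted p = 4.86e-10). Pde3b, which breaks down cyclic AMP and is repressed by FOXP3, had 74.3, 118 and 124 CPM in Anergic and 9.20, 13.2 and 12.9 CPM in Treg (log2 3.18, adjusted p = 1.02e-13). Of 14 tested cyclic AMP enzymes, 6 were higher (42.9%, against 15.6%) and 3 lower (21.4%, against 15.3%), or 4 and 4 with total-count scaling.

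Of 27 tested interferon-stimulated genes, 13 were called lower (48.1%, against 15.3% of all tested genes) and 4 higher (14.8%, against 15.6%), and the 4 became 2 with total-count scaling and without Anergic library 2, Anergic library 3 or Treg library 1. The lower members were led by the GTPases Gbp7 and Igtp, at 85.0, 85.7 and 95.04 CPM in Anergic and 176, 175 and 194 CPM in Treg for Gbp7 (log2 -1.04, adjusted p = 1.03e-10) and 57.9, 65.5 and 59.8 CPM in Anergic and 132, 122 and 127 CPM in Treg for Igtp (log2 -1.05, adjusted p = 1.85e-10). Rsad2, the antiviral protein viperin, was among the higher ones (log2 0.88, adjusted p = 0.00181). Membrane annexin, galectin and S100 genes ran the other way, with 8 higher (47.1%, against 15.6%) and 3 lower (17.6%, against 15.3%) of 17 tested. S100a11 had 50.5, 50.1 and 49.5 CPM in Anergic and 11.2, 10.8 and 12.9 CPM in Treg (log2 2.10, adjusted p = 9.31e-13), and Anxa2 had 48.3, 40.6 and 45.4 CPM in Anergic and 13.9, 15.7 and 18.7 CPM in Treg (log2 1.48, adjusted p = 1.53e-10), while Vim, the intermediate filament vimentin, had 203, 203 and 229 CPM in Anergic and 394, 404 and 420.1 CPM in Treg (log2 -0.94, adjusted p = 3.07e-09). Of 12 tested long noncoding and microRNA host RNAs, 1 was higher (Dleu2, log2 1.37, 8.33% against 15.6%) and 5 lower (41.7% against 15.3%). The lower count was 3 without Anergic library 2 or 3 or Treg library 1 or 2.

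By absolute difference in CPM the comparison was led by abundant genes. Tcf7, Cd4 and Itgb1, given above, were among the 6 largest gains, with Ahnak, a scaffold of the cell membrane, at 1624, 1460.3 and 1761 CPM in Anergic and 731, 819 and 810.0 CPM in Treg (log2 1.04, adjusted p = 5.28e-11). Lars2, a mitochondrial leucyl-tRNA synthetase, had 5280.4, 4215 and 7372 CPM in Anergic and 2417, 3786 and 3377 CPM in Treg (log2 0.82, adjusted p = 0.000486), and was highest in Anergic library 3, where abundant noncoding RNA was also highest. The part of that RNA in the Lars2 value was not tested. Myh9, a nonmuscle myosin chain, completed the gains with a log2 fold change of 0.22 (adjusted p = 0.0256), and its call was lost without Anergic library 3 (adjusted p = 0.116), without Treg library 1 (0.101) and with total-count scaling (0.374). Il2ra, Foxp3, Samhd1, Eef2 and Eef1a1 were among the 6 largest losses. Samhd1, a nucleotide hydrolase that restricts retroviruses, had 502, 574 and 572 CPM in Anergic and 1014, 1023 and 1057 CPM in Treg (log2 -0.91, adjusted p = 1.52e-10). The elongation factor genes Eef2 and Eef1a1 fell by 0.35 and 0.27 on the log2 scale, and the Eef1a1 call was lost without Treg library 3 (adjusted p = 0.0504).

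**Figure D5:**
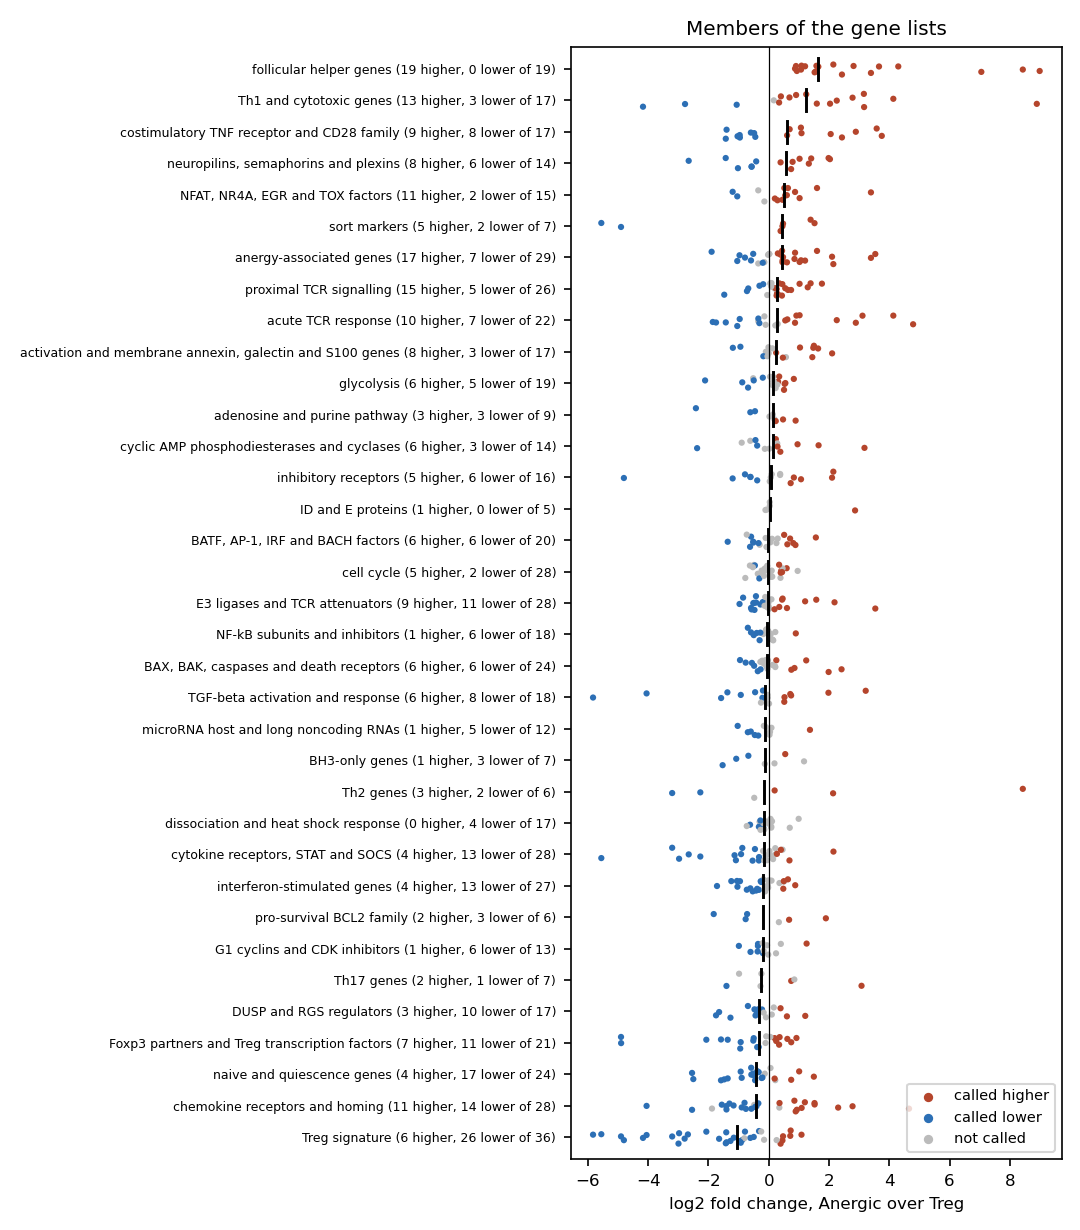
Log2 fold change, Anergic over Treg (x axis), of every tested member of each gene list (rows, ordered by the list's median, black bar), coloured by call (red higher, blue lower, grey not called), with the counts in the row names. Follicular helper genes lie to the right of 0, most Treg signature genes to the left, and the costimulatory, inhibitory receptor and caspase lists spread to both sides.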

How the data were processed

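All 12 libraries were made from QIAGEN RNeasy extracts using a stranded total RNA kit for small inputs (Takara SMARTer Pico v2), per the labels' protocols. The authors deposited raw read counts per gene. Per the series design text these came from Trimmomatic, HISAT2, SAMtools, featureCounts and edgeR, on GRCm38 (mm10) per the submitters' processing notes, which name deepTools 3.5.1.0.1 too. Strand setting and annotation of the counting were not given in the sources used here. Overlapping or antisense genes may therefore trade reads, and near-identical copies are uncertain. Total RNA kits can carry ribosomal and small RNA into the counts, and that share varied by library. Of 54532 entries, 28629 had a count. Entries that share a name (102 names) were treated separately, and 27 date-like names (0.182% of counts) were left as they stand. Positions are from GENCODE M21, which matched 53636 entries (98.4%).

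The test was edgeR's quasi-likelihood F test, two-sided (edgeR 4.0.16, R 4.3.3), with TMM scaling, filterByExpr, one mean for each subset and 8 residual degrees of freedom, for the contrast Anergic minus Treg. A gene was called at a Benjamini-Hochberg adjusted p under 0.05 over 13393 tested genes. Standard errors were taken as the absolute log2 fold change over the root of F. Where a subset had no count, the fold is a lower bound set by a floor of 3 counts over its 3 libraries. Where it had 1 to 3 counts, an exact 95% interval is given, and both cover counting error only. On counts simulated for this contrast over 13008 genes, the test recovered 71% of 100 genes changed 2-fold and 95% of 100 changed 4-fold, with 10 false calls. The simulated spread followed the mean level with no spread particular to a gene, and far fewer genes were changed than were called here. The false calls therefore do not give the error rate of the real contrast. Chi-square per degree of freedom between replicates was 10.2 to 22.5 in Anergic and 2.23 to 3.82 in Treg, above counting noise, so no library was merged with another. It does not show that libraries came from separate animals.

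The 43 gene lists and the members were chosen with earlier results of these data known. Lists are described by counts and medians, with no set test. The genes named by rule were Batf, Bcl2l11, Bcl2, the sort markers, the 12 highest and 12 lowest log2 fold changes (called, subsets not overlapping, mean of 10 CPM or more in the higher one), the 6 largest CPM differences each way, and up to 3 higher and 3 lower members of each list by adjusted p. Predicted, RIKEN, ribosomal, small RNA, pseudogene, mitochondrial and receptor segment names were kept out of the rankings. A few genes that the rule names are not reported here. Bax, Bak1, Bcl6, Btg1, Cblb, Ctla4, Cxcr6, Dgkz, Fas, Fasl, Foxo1, Gzmk, Ikzf2, Il10, Il2, Il2rb, Il2rg, Itch, Itgb8, Lef1, Nr4a2, Nr4a3, Nrp2, Prdm1, Rnf128, Satb1, the 3 Socs genes, Ccr7, S1pr1, Tgfbr1, Tnfsf4 and Tnfsf11 lie outside the rule and were named after their values were seen. Promoters are RefSeq's, matched by symbol. Alternatives were the DESeq2 1.42.0 test and size factors, limma 3.58.1 voom, total-count scaling, 2 other filters, the 6 libraries alone and a replicate block. Each Anergic or Treg library was also left out in turn, but no Teff or Naive library was. Abundant RNA was removed, also without Anergic library 3, a setting added after the data were seen.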

Additional observations from a re-analysis of the deposited data

How the results depend on the processing

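The main counts were 2096 genes higher and 2054 lower in Anergic. Scaling to total counts alone gave 1324 higher and 3027 lower, with the median of all tested genes at -0.131. Leaving out each of the 6 Anergic and Treg libraries in turn gave 1893 to 1944 higher and 1733 to 1928 lower. The remaining settings gave 2203 higher and 1992 lower with DESeq2 size factors, 1959 and 1790 with the DESeq2 test, 2121 and 2087 with limma voom, 2140 and 2083 without a filter, 1825 and 1880 with the filter of 5 CPM in 3 libraries, 2041 and 2051 with the 6 libraries alone, 2165 and 2033 with abundant RNA removed, and 1930 and 1892 with that and without Anergic library 3. Libraries with the same number deviated together only weakly, with correlations of 0.0852, 0.0607 and 0.0563, so the numbers were not taken to pair the samples, although each Anergic library correlated best with the Treg library of its own number. A replicate block gave 2314 higher and 2296 lower, and 2 higher and 7 lower among the dissociation genes. No gene called both in the main fit and in any of the 16 alternatives changed sign. Of 3422 results for named genes under the alternatives, 3323 stayed on their side of the threshold, 90 lost the call, 9 gained it and 0 changed direction. Of 1376 list counts, 81 moved by more than 1.5 times. Causes were not tested. At 7569734 to 9527897 counts a library, genes of a few counts have wide intervals, as for Ntn4 and Il2.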
